A study of Rattus norvegicus with 30 samples.

Results

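The angiopoietins and the Tie receptors form one of the signalling systems that set how tightly endothelial cells adhere and how quiet a vessel stays. Angiopoietin 1, made mainly by pericytes, smooth muscle cells, fibroblasts and platelets, activates the endothelial receptor Tie2 (gene Tek). Angiopoietin 2, made by endothelial cells and stored in their Weibel-Palade bodies, binds the same receptor and, depending on the setting, blocks or weakly activates it. Tie1 is a related receptor with no established high-affinity ligand that pairs with Tie2, and the phosphatase VE-PTP (gene Ptprb) removes phosphate from Tie2 and from VE-cadherin. The genes described here are the rows of the deposited table whose gene name is Angpt1, Angpt2, Tek, Tie1 or Ptprb: 5 genes of 30562, each present as 1 row. All 5 passed the filter on low counts, as did 16171 genes in all.

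RNA was sequenced from CD31-positive lung cells of wild-type rats, sorted with microbeads, 3 weeks after a sham or a Glenn operation. CD31 (gene Pecam1) is a surface protein of endothelial cells that platelets and some leukocytes also carry. The Glenn operation joins a caval vein to the pulmonary artery. The animals' diet held a control amount of vitamin A, was deficient in it or held an excess, which gives 6 groups of 5 libraries: sham control, sham deficient, sham excess, Glenn control, Glenn deficient and Glenn excess. The strain and the age of the animals, and whether each library is a separate animal, are not stated in the labels used here, so p-values measure the spread between these libraries.

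Estimated counts summed to between 22.03 M and 77.6 M per library (M, mega), with a median of 39.97 M. Levels are given as CPM, counts per mega-count after TMM scaling, and these are not divided by transcript length, so the levels of different genes are not compared with each other. Library numbers in the sample names fall below 500 for 22 libraries and above 500 for 8, and the latter sit only in the sham deficient, Glenn deficient and Glenn excess groups. The level of the histocompatibility gene RT1-CE16 was above 100 CPM in 13 libraries, namely those 8, 3 of sham control and 2 of Glenn control. No sham excess library was above that level, so on the excess diet only the low set has a value. Both sexes were present: 13 libraries with the Y-chromosome gene Ddx3y above 10 CPM were taken as male and 17 as female. Glenn excess had 2 female and 3 male libraries, and each other group had 3 and 2. Sex was not a term of the main fit. The cells carried the endothelial genes at high levels: Cdh5 (VE-cadherin) averaged 2427 CPM in sham and 2044 CPM in Glenn libraries, and Pecam1 1213 and 1099 CPM (n = 15 each). Transcripts of other lung cells were present too, some at very high levels: Sftpc, the surfactant gene of alveolar epithelium, averaged 25747 CPM and 19774 CPM. The surfactant gene Sftpa1 averaged 12604 and 10107 CPM, and Lyz2, listed here as a leukocyte marker, 18435 and 12341 CPM. The RNA is thus not endothelial alone.

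All 5 genes changed with the Glenn operation when the 3 diets were averaged. Angpt2 rose 5.20-fold, with no overlap between any sham and any Glenn library. Tie1 rose 1.21-fold and Angpt1 1.35-fold, whereas Tek and Ptprb fell, to 0.759 and 0.844 times the sham level. In the test of each diet alone, an edgeR quasi-likelihood fit with Benjamini-Hochberg adjustment over all genes and a threshold of 0.05, 3 of the 5 genes changed on the control diet, 4 on the deficient diet and 2 on the excess diet. The same rule called 24.9%, 27.4% and 21.9% of all genes in these contrasts. In the averaged contrast, where 5 of 5 passed, it called 48.2% of all genes, 23.4% as higher and 24.7% as lower after Glenn surgery. Angpt2 was the only 1 of the 5 to pass in the same direction on each diet, as 13.5% of all genes did. In bulk RNA, fewer cells of a type and less RNA per cell cannot be told apart, and this holds for every change described here.

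**Figure D1:**
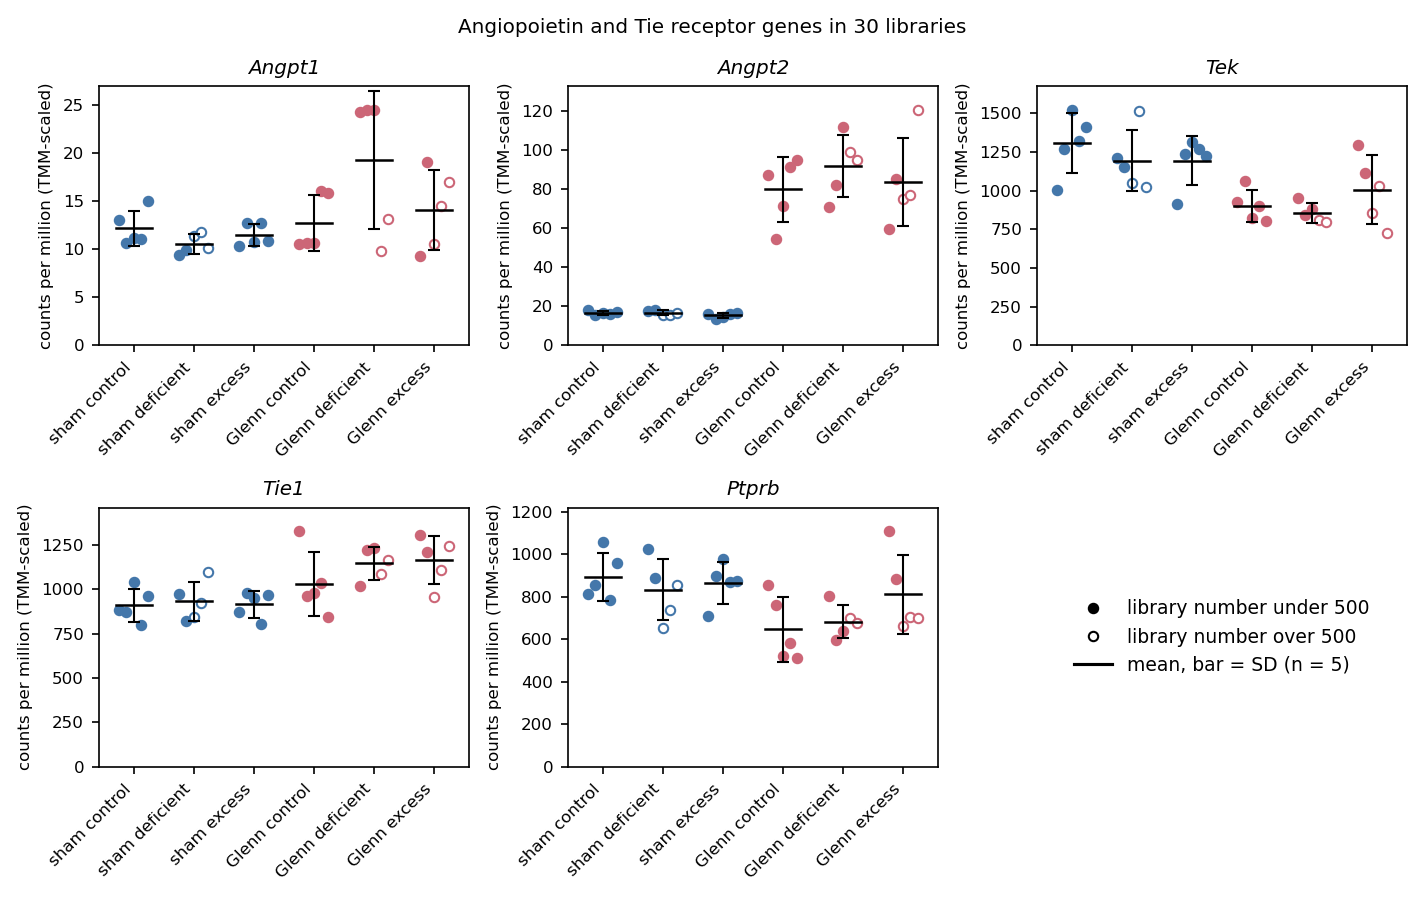
Level of each of the 5 genes in CPM (linear axis from 0) in the 30 libraries, by surgery and diet. Points are libraries in the order of replicates 1 to 5, filled for library numbers under 500 and open for those over 500, lines are group means and bars 1 SD (n = 5). Angpt2 is higher in every Glenn library than in every sham library, and 3 Glenn deficient libraries stand apart for Angpt1.

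Angpt2 (ENSRNOG00000016696) encodes the context-dependent ligand. On the control diet it stood at 17.9, 15.5, 16.7, 15.9 and 16.8 CPM in sham replicates 1 to 5 and at 87.2, 54.3, 71.4, 91.2 and 94.9 CPM in Glenn replicates 1 to 5. The deficient diet gave 17.7, 17.9, 15.2, 15.5 and 16.7 CPM in sham and 70.9, 81.9, 112, 99.0 and 94.9 CPM in Glenn libraries. Excess-diet values were 15.8, 13.2, 14.7, 15.8 and 16.5 CPM in sham and 59.7, 85.3, 75.0, 76.9 and 121 CPM in Glenn libraries. The highest of the 15 sham libraries, at 17.9 CPM, lay below the lowest of the 15 Glenn libraries, Glenn control replicate 2 at 54.3 CPM. Each diet also separated its 2 groups, as happened for 17.2%, 19.6% and 16.3% of all genes on those diets in the same order, and 5.83% of genes separated 15 against 15 libraries. Sham libraries were also tight: their SD was 7.85% of the mean over 15 libraries, against 21.2% of the mean in the 15 Glenn libraries.

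The log2 change of Angpt2 was 2.27 (SE 0.15, edgeR adjusted p 5.51e-12) on the control diet, 2.48 (SE 0.15, edgeR adjusted p 1.88e-12) on the deficient diet and 2.39 (SE 0.17, edgeR adjusted p 2.71e-11) on the excess diet. Averaged over diets it was 2.38 (SE 0.09, 95% interval 2.20 to 2.56, edgeR adjusted p 3.76e-18). Of the 16171 genes tested, 181 had a larger rise, and 1.45% had a larger change in either direction. No difference of the Glenn effect on Angpt2 between diets was detected, and each interval of the difference includes 0: deficient minus control was 0.21 (95% interval -0.21 to 0.64), excess minus control 0.12 (-0.33 to 0.57) and excess minus deficient -0.09 (-0.56 to 0.38). In the order of group means, the 3 sham groups (15.2 to 16.6 CPM) were followed by Glenn control (79.8 CPM), Glenn excess (83.5 CPM) and Glenn deficient (91.7 CPM). The step from sham deficient to Glenn control, 63.2 CPM, exceeded the larger SD of the pair, 16.9 CPM. So did the step from sham excess to sham control, 1.34 CPM against an SD of 1.31, although these ranges overlap and the edgeR contrast did not pass (-0.12, edgeR adjusted p 0.832). The other neighbours in the order lay within their SD.

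In RefSeq's table for the assembly GRCr8, Angpt2 lies within the span of Mcph1, a gene of chromosome condensation. Mcph1 itself was low in all libraries, at 0.404 to 2.73 CPM, and its group means ran from 0.883 to 1.41 CPM with no gap between sham and Glenn groups. Angpt4, the remaining angiopoietin, stood at 0 to 0.445 CPM and at most 17 counts in a library, and its averaged log2 change of 0.96 (SE 0.71, edgeR adjusted p 0.279) did not pass.

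**Figure D2:**
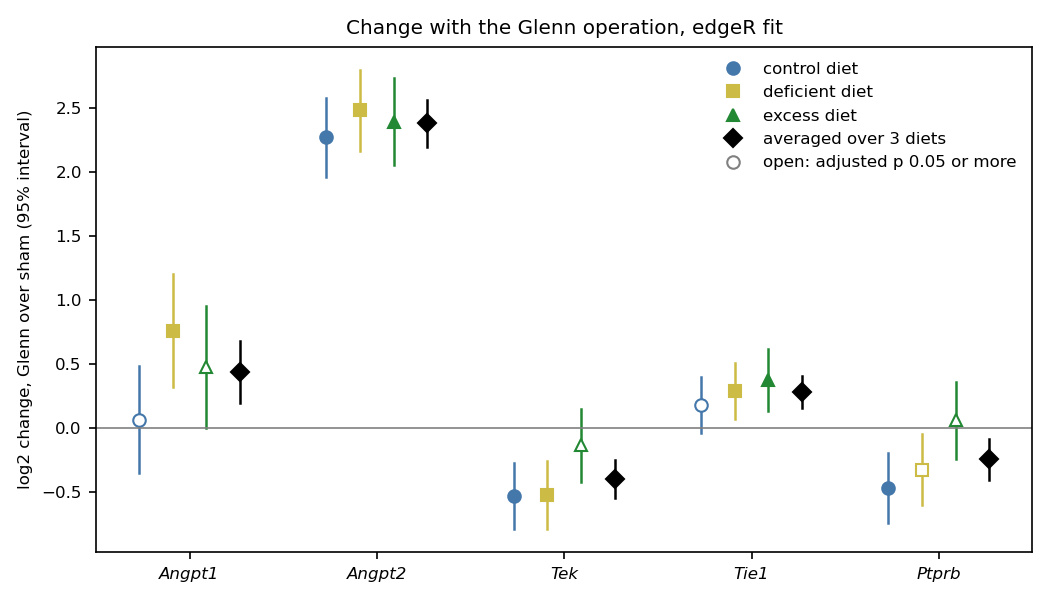
Fitted log2 change from sham to Glenn surgery for each gene on each diet and averaged over the 3 diets, with 95% intervals from the edgeR fit. Filled symbols have an adjusted p under 0.05 over all genes. The Angpt2 changes lie between 2.27 and 2.48 and stand well apart from those of the other 4 genes, which run from -0.53 to 0.76.

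Angpt1 (ENSRNOG00000005854), the activating ligand, was a low transcript in these sorted cells, at 9.28 to 24.6 CPM. Control-diet libraries stood at 13.0, 10.6, 11.2, 11.1 and 15 CPM in the sham group and at 10.5, 10.6, 10.7, 16.1 and 15.9 CPM in the Glenn group. Deficient-diet libraries stood at 9.41, 9.97, 11.3, 11.8 and 10.1 CPM and at 24.3, 24.6, 24.5, 9.80 and 13.2 CPM. Those of the excess diet stood at 10.3, 12.8, 10.8, 12.7 and 10.9 CPM and at 9.28, 19.1, 10.5, 14.5 and 17.0 CPM. The sham and Glenn values overlapped on every diet. Above all sham libraries of their diet lay 2, 4 and 3 of 5 Glenn libraries on the control, deficient and excess diets. Glenn deficient replicates 1 to 3 stood apart from the rest, within 24.3 to 24.6 CPM.

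Angpt1 rose on the deficient diet by 0.76 in log2 (SE 0.22, edgeR adjusted p 0.00894). On the control diet the value was 0.06 (SE 0.20, edgeR adjusted p 0.865), and on the excess diet 0.48 (SE 0.23, edgeR adjusted p 0.150), neither past the threshold. The control-diet value was -0.14 in the libraries low in RT1-CE16 and 0.37 in those high in it, with neither past the threshold. Averaged over diets it was 0.43 (SE 0.12, edgeR adjusted p 0.00328). The rise on the deficient diet rested on the libraries numbered under 500: Glenn deficient replicates 1 to 3 averaged 24.5 CPM against 9.69 CPM in sham replicates 1 and 2, while Glenn deficient replicates 4 and 5, numbered over 500, averaged 11.5 CPM against 11.1 CPM in sham replicates 3 to 5. Fitted within each set, the log2 change was 1.34 among numbers under 500 and 0.04 among the RT1-CE16-high libraries, which on this diet are those numbered over 500. Without sham deficient replicate 1 the change was 0.63 (edgeR adjusted p 0.0537). On the excess diet, leaving out Glenn excess replicate 1, the lowest of all libraries at 9.28 CPM, brought the change to 0.74 (edgeR adjusted p 0.0191). The group means ran from 10.5 CPM (sham deficient) through 11.5, 12.2, 12.8 and 14.1 CPM to 19.3 CPM (Glenn deficient), and each step was smaller than the larger SD of its pair.

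Markers of cell types known to make Angpt1 moved with the operation. Of 13 pericyte and smooth muscle markers measured, 13 rose in the averaged contrast, with a median log2 change of 1.5. Their summed level ran from 191 to 395 CPM in sham and from 567 to 1893 CPM in Glenn libraries, and Pdgfrb and Rgs5 were above 0 in every library. Of 10 fibroblast markers, 9 rose (median 0.77), and their summed level ran from 1399 to 3444 CPM in sham and from 1975 to 4996 CPM in Glenn libraries. By diet, 2, 7 and 3 of these 10 rose on the control, deficient and excess diets (medians 0.26, 1.00 and 1.00). Of the 13 pericyte and smooth muscle markers, 8, 12 and 12 rose. In these contrasts 24.9%, 27.4% and 21.9% of all genes were called in either direction. Platelet markers went down, 7 of 8, with a median of -1.11 and summed levels of 31.1 to 115 CPM and 26.6 to 105 CPM. The platelet gene Ppbp was at 0 in 9 libraries. The fibroblast score, the mean log2(CPM + 1) of the list, was 6.37 to 6.64 in the 3 Glenn deficient libraries with high Angpt1 and 5.72 to 5.93 in the other 2. The summed fibroblast level did not separate them, at 3389 to 3880 CPM in those 3 and 3481 and 4996 CPM in the other 2. Nor did the mural score, at 5.08 to 6.10 and 4.90 to 5.10. Over the 30 libraries, after subtracting group means, Angpt1 had a Pearson r of 0.67 with the fibroblast score, 0.56 with the mural score and -0.02 with the platelet score. These points share libraries and depth, and the part of such cells in the Angpt1 values was not tested.

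**Figure D3:**
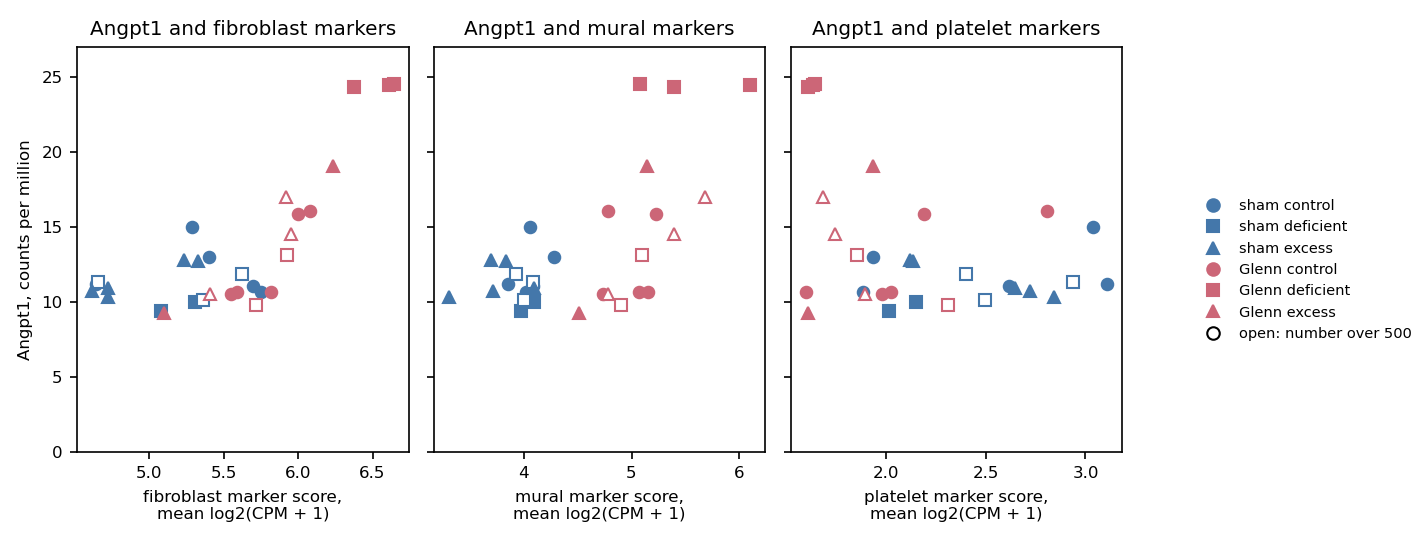
Angpt1 in CPM (from 0) against the fibroblast, mural and platelet marker scores, each the mean log2(CPM + 1) of its list, in the 30 libraries. Colour gives the operation, shape the diet and open symbols library numbers over 500. The 3 libraries near 24.5 CPM have the 3 highest fibroblast scores.

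Tek (ENSRNOG00000008587) encodes Tie2, the receptor for both ligands. On the control diet the sham group stood at 1006, 1272, 1524, 1323 and 1409 CPM and the Glenn libraries at 928, 1059, 820.4, 902 and 802 CPM. The deficient diet gave 1210.2, 1156, 1052, 1518 and 1023 CPM in sham and 951, 845, 883, 807 and 794 CPM in Glenn libraries. With excess vitamin A, sham libraries stood at 915, 1237, 1315, 1269.7 and 1227 CPM and Glenn libraries at 1298, 1114, 857, 1031 and 726 CPM. The groups were separate on the deficient diet. They overlapped on the control diet, where 4 of 5 Glenn libraries lay below all sham libraries, and on the excess diet, where 2 of 5 did. Glenn excess replicate 1 was the highest Glenn library and sham excess replicate 1 the lowest sham library.

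Tek fell by 0.53 on the log2 scale on the control diet (SE 0.13, edgeR adjusted p 0.00195) and by 0.52 on the deficient diet (SE 0.13, edgeR adjusted p 0.00257). The excess diet gave -0.14 (SE 0.14, edgeR adjusted p 0.541). The average over diets was -0.40 (SE 0.07, edgeR adjusted p 4.83e-05). Tek in only the libraries low in RT1-CE16 stood at -0.27 on the control diet (edgeR adjusted p 0.320), -0.40 on the deficient diet (edgeR adjusted p 0.0839) and -0.22 averaged (edgeR adjusted p 0.0623), none past the threshold. Those high in RT1-CE16 had -0.73 on the control and -0.58 on the deficient diet, both past it, and the difference between the sets was not tested. On the excess diet the value was -0.26 without Glenn excess replicate 1 and 0.03 with library numbers under 500 alone, where the 2 Glenn libraries averaged 1206 CPM against 871 CPM in the 3 numbered over 500. In the order of means, the 3 Glenn groups (856, 902 and 1005 CPM) lay below the 3 sham groups (1192, 1193 and 1307 CPM), with every step between neighbours inside the larger SD. Of 10 general endothelial markers, 3 rose and 6 fell (median -0.40). Their summed level ran from 9308 to 12019 CPM in sham and from 5594 to 8332 CPM in Glenn libraries, with none at 0, and its part in the fall of Tek and Ptprb was not tested.

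Tie1 (ENSRNOG00000020173) encodes the partner receptor and moved the other way from Tek. Control-diet values were 882, 873, 1039, 796 and 960.2 CPM in sham and 1328, 960.2, 982, 1034 and 842 CPM in Glenn libraries. Deficient-diet values were 972, 822, 846, 924 and 1099 CPM and 1020.1, 1220.1, 1234, 1087 and 1167 CPM. Excess-diet values were 871, 978, 952, 805 and 971 CPM and 1306, 1209, 957, 1110.0 and 1244 CPM. All 3 pairs of groups overlapped: 1, 3 and 4 of 5 Glenn libraries lay above all sham libraries of their diet, and over the diets 8 of 15 lay above all 15 sham libraries and 0 below.

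The log2 change of Tie1 was 0.18 on the control diet (SE 0.11, edgeR adjusted p 0.24), 0.29 on the deficient diet (SE 0.11, edgeR adjusted p 0.0469) and 0.37 on the excess diet (SE 0.12, edgeR adjusted p 0.0201). Averaged, Tie1 rose by 0.28 (SE 0.06, edgeR adjusted p 0.000431), and that call held in each fit that left out 1 of the 30 libraries. The call on the deficient diet was close to the threshold and was lost in 18 of those 30 fits, and the call on the excess diet was lost without sham excess replicate 4, Glenn excess replicate 1 or Glenn excess replicate 2 (0.33, 0.31 and 0.36). On the control diet Tie1 stood at 0.32 in the libraries low in RT1-CE16 and at 0.02 in those high in it, and on the deficient diet at 0.37 and 0.24, none of these past the threshold. The group means ran from 910.1 CPM (sham control), 915 CPM (sham excess) and 933 CPM (sham deficient) to 1029 CPM (Glenn control), 1146 CPM (Glenn deficient) and 1165 CPM (Glenn excess), each step inside the larger SD. RefSeq's GRCr8 table places a long noncoding RNA gene over the end of Tie1 and another over the start of Angpt1, and the strand setting of the counting is not given in the sources used here, so reads from such overlaps cannot be told apart.

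Of the 5 genes, RefSeq's promoter table (GRCr8) matched 1, Tie1. A stretch of the window upstream of the gene's start is shown because Klf2 and Klf4, zinc-finger factors whose sites are CACCC boxes, are among the regulators described further on. It lies at chr5:137305048-137305231 on the minus strand and is written 5′ to 3′ along the gene, with matches to CCACCC in capitals. 
Tie1 promoter: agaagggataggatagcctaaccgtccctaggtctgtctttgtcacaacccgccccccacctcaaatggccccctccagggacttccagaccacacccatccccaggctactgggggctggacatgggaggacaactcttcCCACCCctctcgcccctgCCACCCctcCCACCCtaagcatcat
 The 3 matches to CCACCC begin 109, 91 and 82 bases before the gene's start, all on the gene's strand, and do not overlap each other. Searched on both strands, 26.1% of 33469 promoter windows of 250 bases hold this motif. The motif AGGAAG of ETS factors such as Erg had 1 match, on the opposite strand 61 bases before the start and outside the stretch shown, and 29.5% of windows hold it. The FOXO motif TGTTTAC had 0 matches on either strand, and 3.21% of windows hold it. The motif AGATAA of GATA factors had 0 as well, with 10.3% of windows. The hypoxia factors' motif ACGTG had 0, with 16.6% of windows. A match is a run of letters and no evidence of binding.

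Ptprb (ENSRNOG00000055293) encodes VE-PTP, the phosphatase that acts on Tie2. With control vitamin A it stood at 812, 855, 1055, 785 and 960.3 CPM in sham and at 852, 762, 522, 582 and 513 CPM in Glenn libraries. On the deficient diet the values were 1025, 889, 652, 738 and 857 CPM and 804, 598, 638, 698 and 675 CPM. On the excess diet they were 707, 899, 978, 870.1 and 875 CPM and 1109, 882, 659.5, 705 and 699 CPM. The groups overlapped on every diet. Glenn excess replicate 1 lay above all 15 sham libraries, while 5 of 15 Glenn libraries lay below all of them.

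Ptprb fell by 0.47 on the log2 scale on the control diet (SE 0.13, edgeR adjusted p 0.00985). It stood at -0.33 on the deficient diet (SE 0.13, edgeR adjusted p 0.0718) and 0.06 on the excess diet (SE 0.15, edgeR adjusted p 0.820), and the latter was -0.08 without Glenn excess replicate 1 and -0.09 without the term for library numbers. Averaged over diets the change was -0.24 (SE 0.08, edgeR adjusted p 0.0113). On the control diet the value was -0.22 in the libraries low in RT1-CE16 (edgeR adjusted p 0.550) and -0.76 in those high in it (edgeR adjusted p 0.00179). On the deficient diet it was -0.49 and -0.13, neither past the threshold. The low set gave -0.16 averaged (edgeR adjusted p 0.244), and within numbers under 500 the average was -0.24 (edgeR adjusted p 0.0583), and the averaged change of Ptprb did not pass in either subset. Means ran from 646 CPM (Glenn control) through 683, 811, 832 and 866 CPM to 894 CPM (sham control), with every step inside the larger SD. Of 4 other phosphatases of the same receptor class, 1 fell on the control diet: Ptprj, by 0.52 (SE 0.13, edgeR adjusted p 0.00403). On that diet 24.9% of all genes were called. Averaged over diets the 4 had edgeR adjusted p from 0.0735 (Ptprj, -0.17, SE 0.08) to 0.895 (Ptprq, 0.12, SE 0.63).

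Ratios of counts inside a library do not depend on how libraries are scaled, and their change between groups does not depend on gene length. The log2 ratios, with 0.5 added to each count, were compared by exact two-sided permutation within diets (5 against 5, smallest possible p 0.00794). The p-values were adjusted over 36 tests (9 ratios, 3 diets and their average). Unlike the edgeR fit, these permutations had no term for library numbers. On the excess diet, 3 of 5 Glenn libraries and no sham library had numbers in the higher range. On the deficient diet, 2 Glenn and 3 sham libraries did, and on the control diet none. On the excess and deficient diets and in the average, these p-values do not separate the operation from the number range.

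Angpt2 over Angpt1 rose on every diet. Control-diet ratios were 1.37, 1.46, 1.49, 1.43 and 1.12 in sham and 8.27, 5.10, 6.68, 5.67 and 5.98 in Glenn libraries. On the deficient diet it was 1.88, 1.80, 1.34, 1.31 and 1.65 and 2.91, 3.33, 4.56, 10.1 and 7.2. On the excess diet it was 1.53, 1.03, 1.36, 1.25 and 1.51 and 6.43, 4.47, 7.12, 5.29 and 7.08. The Glenn deficient libraries with high Angpt1 had ratios of 2.91 to 4.56, the first and second of which were the lowest of all Glenn libraries, and they still lay above the highest sham ratio of 1.88. The log2 change was 2.19, 1.67 and 2.18 on the 3 diets (exact permutation, adjusted p 0.0136 each) and 2.01 on average, a 4.04-fold rise (exact permutation over 16003008 assignments, adjusted p 1.12e-06). Before adjustment this p is the smallest those permutations can give. On the deficient diet the change was 0.94 among library numbers under 500, the set that holds the Glenn deficient libraries with high Angpt1. Among numbers over 500 on that diet, the ratios were 10.1 and 7.2 in Glenn and 1.34, 1.31 and 1.65 in sham libraries.

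Tie1 over Tek rose as well. Control-diet ratios were 0.877, 0.686, 0.682, 0.602 and 0.681 in sham and 1.43, 0.907, 1.2, 1.15 and 1.05 in Glenn libraries. On the deficient diet it was 0.803, 0.711, 0.804, 0.608 and 1.07 and 1.07, 1.44, 1.40, 1.35 and 1.47. On the excess diet it was 0.952, 0.791, 0.724, 0.634 and 0.791 and 1.01, 1.09, 1.12, 1.08 and 1.71. The groups were separate on the control and excess diets and met on the deficient diet, where sham replicate 5 at 1.07 stood level with Glenn replicate 1. The averaged log2 change was 0.69, a 1.61-fold rise (exact permutation, adjusted p 1.8e-06). Per diet it was 0.70 and 0.61 on the control and excess diets (exact permutation, adjusted p 0.0136 each) and 0.77 on the deficient diet (exact permutation, adjusted p 0.0260). Ptprb over Tek, the phosphatase relative to its substrate, moved by 0.13 on average (exact permutation, adjusted p 0.137).

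The members were also set against the summed counts of 4 endothelial genes, Pecam1, Cdh5, Cldn5 and Erg, in the same library. Cldn5 and Cdh5 fell and Erg rose in the averaged contrast (log2 changes -0.54, -0.25 and 0.55). Mean levels in sham and Glenn libraries were 2427 and 2044 CPM for Cdh5 and 1775 and 1207 CPM for Cldn5. They were 1213 and 1099 CPM for Pecam1 and 94.6 and 137 CPM for Erg, a small part of the sum. The sum is thus a reference that itself falls with the operation, and a falling reference raises every ratio over it. Over this sum, Tie1 rose 1.48-fold on the control diet and 1.49-fold on each of the other 2 (exact permutation, adjusted p 0.0136 each), with 0.143 to 0.193 in the 15 sham libraries and 0.205 to 0.281 in the 15 Glenn libraries. Angpt2 rose 6.36-fold on average and was separate in every diet. Tek over the sum moved by -0.12 on average (exact permutation, adjusted p 0.191) and Ptprb by 0.01 (exact permutation, adjusted p 0.966). On this reference the falls of Tek and Ptprb seen in CPM did not pass the threshold. Angpt1 over the sum rose by 0.66 on average (exact permutation, adjusted p 0.000535): 1.05 on the deficient diet (exact permutation, adjusted p 0.0136), 0.44 on the control diet and 0.47 on the excess diet (exact permutation, adjusted p 0.137 and 0.0994).

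**Figure D4:**
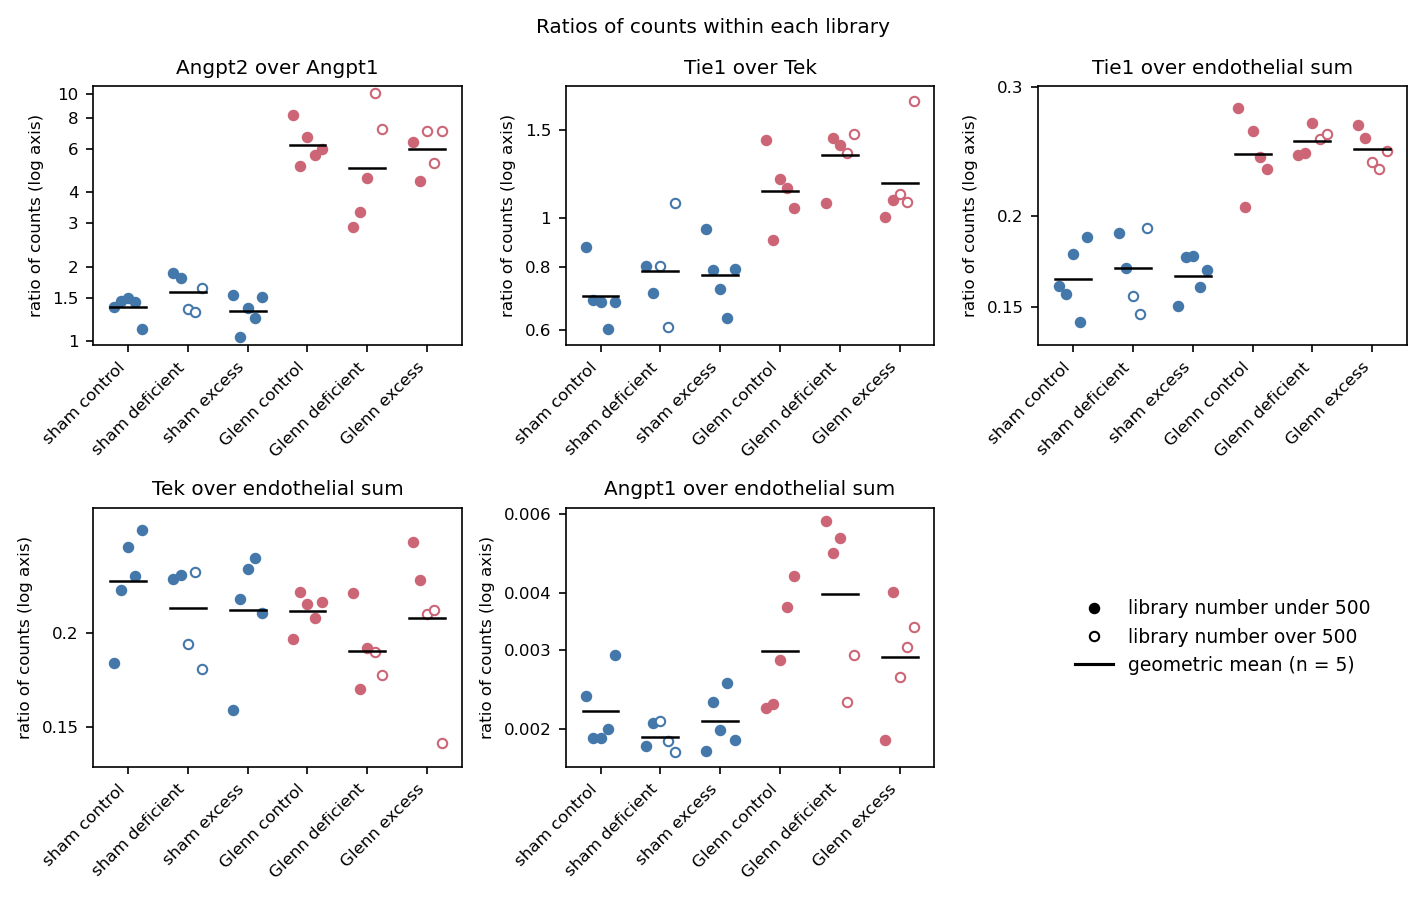
Ratios of counts inside each of the 30 libraries on log axes, by surgery and diet. Points are libraries, filled for numbers under 500 and open for those over 500, and lines are geometric means (n = 5). Tie1 over the endothelial sum (Pecam1, Cdh5, Cldn5 and Erg) separates all sham from all Glenn libraries, whereas Tek over the sum overlaps.

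By edgeR, no difference between diets was detected for any of the 5 genes within an operation. After sham surgery, 0 of 5 passed by edgeR in deficient against control, excess against control and excess against deficient, with 0 at an unadjusted p under 0.05 and 0 by DESeq2 or limma voom. All genes passed at 0%, 0.241% and 0.0124% in these contrasts. After Glenn surgery, 0 of 5 passed by edgeR in the same 3 contrasts, where 0.00618%, 1.47% and 0% of all genes passed. At an unadjusted p under 0.05 there were 1, 1 and 2 of the 5. DESeq2 and limma voom each called 1 member in the second contrast, Ptprb, and 0 in the others. After sham surgery the differences lay between -0.13 and 0.06 on the log2 scale. The widest 95% interval among them, that of Angpt1 between excess and deficient, ran from -0.55 to 0.42.

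The largest diet differences followed Glenn surgery. Angpt1 was 0.67 higher on the deficient than on the control diet (95% interval 0.25 to 1.1, edgeR adjusted p 0.273), and this was 1.2 in the libraries low in RT1-CE16 (edgeR adjusted p 0.0308) but -0.48 in those high in it (edgeR adjusted p 0.814), so the direction turned between the sets. Ptprb was 0.48 higher with excess than with control vitamin A (95% interval 0.18 to 0.78, edgeR adjusted p 0.0926). That difference passed by DESeq2 (0.47, adjusted p 0.0486) and by limma voom (0.51, adjusted p 0.0392), which are fits of the same libraries. It also passed by edgeR without Glenn control replicate 1 (0.60, adjusted p 0.0171). The 2 Glenn excess libraries numbered under 500 averaged 995 CPM of Ptprb and the 3 numbered over 500 averaged 688 CPM. The 5 Glenn control libraries, all numbered under 500, averaged 646 CPM. Split by RT1-CE16, Glenn excess against Glenn control was 995 against 712 CPM in the low libraries and 688 against 548 CPM in the high ones. The Glenn changes of Tek and Ptprb were nearest to 0 on the excess diet. The difference between diets in that response was tested directly and did not pass: excess minus control was 0.40 for Tek (95% interval 0.02 to 0.78, edgeR adjusted p 0.650) and 0.53 for Ptprb (95% interval 0.12 to 0.93, edgeR adjusted p 0.487). Over all diets the interaction test called 0 of 5 by edgeR (0 by DESeq2 and by limma voom, and 1 at an unadjusted p under 0.05, Ptprb), and 0.00618% of all genes.

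Among 20 other genes of the Tie2 route, a list of ligand-related proteins, adaptors, kinases and targets, 5 rose and 3 fell in the averaged contrast, and the median log2 change was 0.08 against -0.01 over all genes. In that contrast 23.4% of all genes were called higher and 24.7% lower. The same shares stand beside every list count of the averaged contrast given here. Nos3, the endothelial nitric oxide synthase, rose from 81.9 ± 10.1 to 154 ± 35.2 CPM (SD, n = 15 each, by 0.91, edgeR adjusted p 1.07e-09). Shc1, an adaptor that docks on Tie2, rose from 134 ± 7.15 to 201 ± 18.4 CPM (0.58, edgeR adjusted p 1.32e-12), and the adaptor Grb14 rose by 0.43 (edgeR adjusted p 0.00945). Pik3ca, a catalytic subunit of PI 3-kinase, fell from 117 ± 7.01 to 83.9 ± 10.5 CPM (-0.49, edgeR adjusted p 8.24e-09), while its regulatory subunit Pik3r1 rose by 0.31 (edgeR adjusted p 0.0388). The adaptors Nck1 and Grb2 fell by 0.27 and 0.10 (edgeR adjusted p 0.000273 and 0.0123). Foxo1, a factor that Akt holds back and that can drive Angpt2, stood at 0.12 (SE 0.06, edgeR adjusted p 0.119). The adaptor Dok2 stood at -0.82 (SE 0.35, edgeR adjusted p 0.0521) and Svep1, a matrix protein that binds Tie1, at 0.24 (SE 0.25, edgeR adjusted p 0.443).

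Angiopoietin-like genes encode secreted proteins named for their likeness to the angiopoietins. Of 7 listed, 6 could be tested, 3 rose and 1 fell, where 48.2% of all genes were called. Angptl4, an inhibitor of lipoprotein lipase, rose from 1.12 ± 0.71 to 4.43 ± 1.25 CPM (SD, n = 15 each, by 1.98, edgeR adjusted p 1.33e-08) and Angptl2 from 9.19 ± 2.0 to 21.1 ± 5.70 CPM (1.22, edgeR adjusted p 3.88e-10). Angptl1 rose by 0.51 (edgeR adjusted p 0.0448) and Angptl8 fell by 0.50 (edgeR adjusted p 0.0201), both below 2 CPM on average.

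The storage and release machinery of Weibel-Palade bodies, which hold angiopoietin 2, moved in both directions: of 12 genes, 3 rose and 4 fell (median 0.05). Of all genes, 23.4% rose and 24.7% fell. Selp, the gene of P-selectin, which Weibel-Palade bodies also store, rose from 41.3 ± 9.47 to 80.6 ± 28.6 CPM (SD, n = 15 each, by 1.03, edgeR adjusted p 9.94e-09), and the membrane protein Cd63 rose by 0.38 (edgeR adjusted p 1.08e-06). Vwf, whose protein builds the granule, fell from 1559 ± 239 to 978 ± 289 CPM (-0.64, edgeR adjusted p 2.92e-06). Hps6, needed for granule formation, fell by 0.83 (edgeR adjusted p 8.27e-13) and Myrip, which tethers granules to actin, by 0.59 (edgeR adjusted p 7.40e-05). Unc13d, a priming factor, rose by 0.38 (edgeR adjusted p 0.00393).

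Cell junctions are what VE-PTP and Tie2 act on. Of 12 genes of the VE-cadherin junction, 2 rose and 8 fell (median -0.22), where 23.4% of all genes rose and 24.7% fell. Esam fell from 857 ± 69.0 to 507 ± 78.3 CPM (SD, n = 15 each, -0.75, edgeR adjusted p 3.04e-13), Kdr, the VEGF receptor, by 0.85 (edgeR adjusted p 3.09e-10) and Jup, or plakoglobin, by 0.56 (edgeR adjusted p 8.08e-11). Ctnnb1, or beta-catenin, rose from 266 ± 12.5 to 349 ± 22.8 CPM (0.39, edgeR adjusted p 1.94e-10), and F11r, a junctional adhesion molecule, rose by 0.17 (edgeR adjusted p 0.00203). Of 10 transcription factors known to act on these genes or on endothelial cells in general, 2 rose and 6 fell (median -0.33). Klf2, a shear-induced factor, fell from 1474 ± 283 to 656 ± 103 CPM (SD, n = 15 each, -1.16, edgeR adjusted p 3.88e-13), Gata2 by 0.98 (edgeR adjusted p 1.50e-12) and Epas1, or HIF-2 alpha, by 0.95 (edgeR adjusted p 6.06e-14). Hif1a rose by 0.58 (edgeR adjusted p 1.76e-11) and Erg by 0.55 (edgeR adjusted p 3.36e-09), while Klf4, Ets1 and Elf1 fell by 0.72, 0.55 and 0.12. These lists were drawn up with earlier results of these samples known, so their counts are descriptions.

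**Figure D5:**
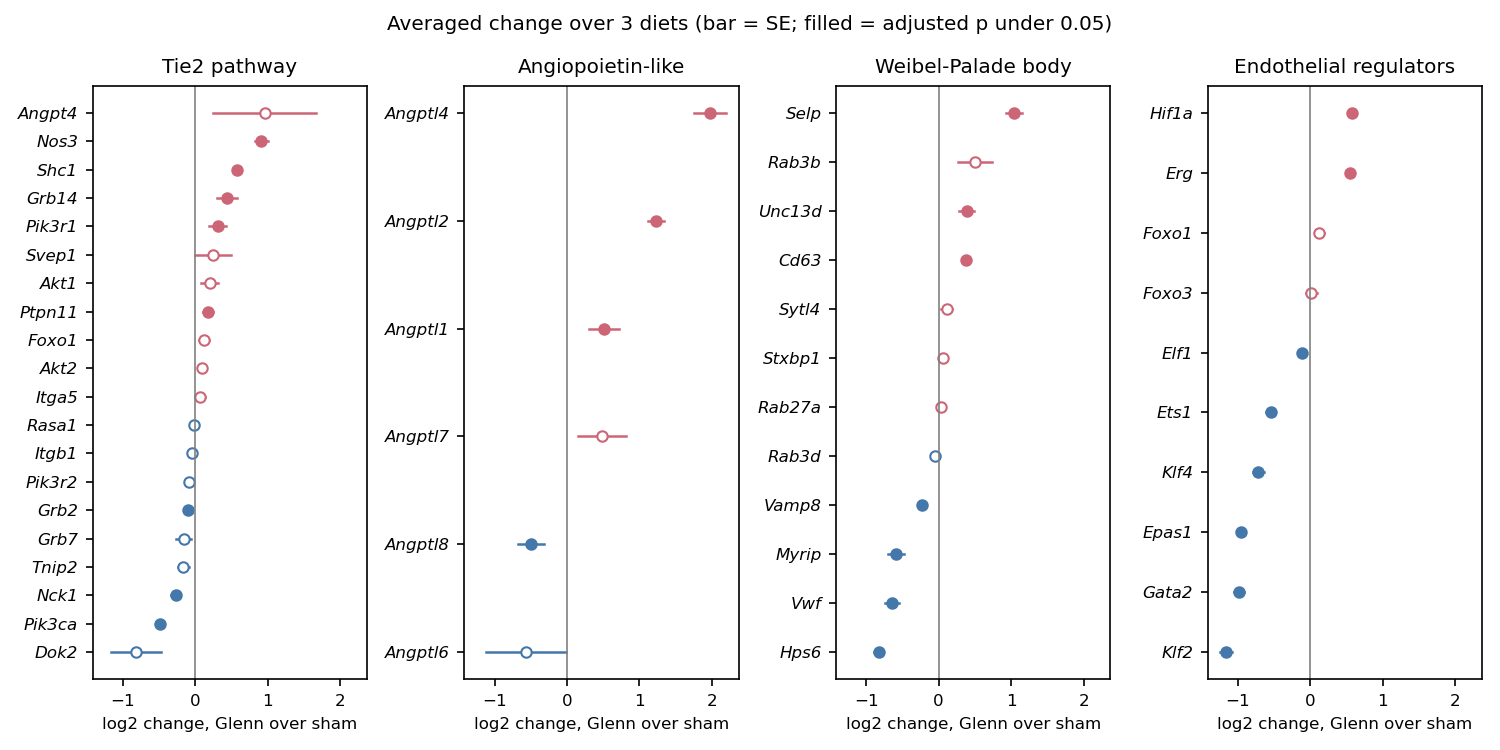
Averaged log2 change from sham to Glenn surgery for genes of 4 lists, sorted by change within each list, with 1 SE as bars. Filled points have an edgeR adjusted p under 0.05 over all genes. Rises and falls occur in each list, with Angptl4 at 1.98 and Klf2 at -1.16 as the extremes shown.

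Markers of endothelial types also changed with the operation. Of 8 lymphatic markers, 7 rose (median 1.02), and their summed level ran from 1259.7 to 2118 CPM in sham and from 2505 to 5150 CPM in Glenn libraries. Prox1, the defining lymphatic factor, averaged 5.23 and 11.2 CPM. Of 7 general capillary markers, 6 fell (median -0.57), with summed levels of 6174 to 8789 CPM and 2309 to 4860.5 CPM. None of these markers was at 0 in any library. Of 7 arterial markers tested, 5 rose and 2 fell (median 0.39). Of 7 venous markers, 1 rose and 5 fell (median -0.47), and of 8 aerocyte (capillary) markers, 2 rose and 5 fell (median -0.58). After subtracting group means, Angpt2 had a Pearson r of -0.06 with the lymphatic score, 0.42 with the mural score and -0.53 with Tek over 30 libraries. It was -0.49 with the venous score, -0.40 with the general endothelial score and -0.10 with the general capillary score. With the arterial and aerocyte scores it was 0.01 and 0.07. Tek and Ptprb had 0.62, and Tie1 and Ptprb 0.53, with each other. The values furthest from 0 with a marker score were -0.65 (epithelial) and 0.65 (general endothelial) for Tie1, 0.58 (venous) for Tek and 0.62 (arterial) for Ptprb. Of 10 epithelial markers, 2 rose and 5 fell (median -0.24), with summed levels of 36669 to 62325 CPM in sham and 26765 to 58339 CPM in Glenn libraries. These libraries share their depth and preparation, and the part of cell composition in the members' changes was not tested.

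The genes whose log2(CPM + 1) was most like each member over the 30 libraries, among the 12720 genes averaging 1 CPM or more, are given by Pearson r. Angpt2 was closest to Vash1, Smad1 and Slc2a3 (0.98 each), all with large changes between sham and Glenn libraries: Vash1, a vasohibin, went from 17.3 ± 2.23 to 199 ± 47.9 CPM (SD, n = 15 each). Angpt1 was closest to Fhl1, Ednra and Olfml1 (0.84, 0.83 and 0.83), where Ednra encodes an endothelin receptor of smooth muscle. Tek was closest to Efnb2 (0.91), Adgrf5 and Txnip (0.89 each), Tie1 to Garre1 (0.87), Lrrc8c and Cep68 (0.85 each), and Ptprb to Vwf (0.86), Pcnx1 and Ptprg (0.85 each). With group means removed, the nearest genes were Olfml1, Vstm4 and Fhl1 for Angpt1 (0.78, 0.78 and 0.76), Arc, Sntg2 and Cand2 for Angpt2 (0.75, 0.75 and 0.74), Sec14l1, Ace and Angel2 for Tek (0.86, 0.86 and 0.85), Scarb1, Itga5 and Lrrc8c for Tie1 (0.81, 0.80 and 0.80) and Dchs1, Agrn and Epas1 for Ptprb (0.85, 0.84 and 0.82). They are the highest of many values over the same libraries and are given as descriptions.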

How the data were processed

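RNA of 30 libraries of sorted rat lung cells was analysed from a single table of estimated counts per gene. Per the submitters' processing notes, the authors used FastQC, Trim Galore, Picard, STAR and Salmon with the builds mRatBN7.2 and rn7, without versions or the roles of each. The deposited values are estimated counts (expected counts) that Salmon gave for 30562 gene rows, merged over libraries by the authors, per the file headers. Of these values 13.6% are not whole, so they were rounded. Per the labels' protocols, libraries were made with the SMART-Seq Ultra Low kit.

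Genes were kept by edgeR's filterByExpr (version 4.0.16, minimum count 10 and minimum total 15) and scaled by TMM (factors 0.938 to 1.06). The quasi-likelihood fit had 6 group means and a term for library numbers over 500, and p-values were adjusted by Benjamini-Hochberg over the 16171 genes tested. The SE of a log2 change was taken as its size over the root of the F statistic. Exact permutation tests of ratios had no term for library numbers and used Python 3.11.15 with numpy 2.4.6. The fits were tested on simulated data. The named genes are the 5 members, the 3 genes most correlated with each, in each pathway list up to 3 rising and 3 falling genes with the smallest adjusted p, and defining markers of cell types. Further genes were named after their values were seen. A gene of the Tie2 list is not reported here and was left out of its counts. The members and lists were chosen with earlier results of these data known.

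Alternatives were other normalization (DESeq2 1.42.0, limma voom 3.58.1), no filter, fewer groups or libraries, further terms, a replicate block and leaving out each library. Counts have a precision set by totals of 22.03 M to 77.6 M per library.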

Additional observations from a re-analysis of the deposited data

Results flagged for a closer look

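Tek in sham excess replicate 1 stood apart from its group: its 915 CPM was the lowest of 5, the others lay between 1227 and 1315 CPM, and the gap to the nearest made up 0.779 of the group's range. The bound for a group of 5 is 0.71. This was 1 of 30 sets of 5 values examined, where chance alone would give 1.5. The library has a number under 500 and a low RT1-CE16 level.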

How the results depend on the processing

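Over settings other than leaving out a library, 212 of 225 surgery values of the 5 genes kept their direction and their side of the threshold, 12 lost the call and 1 gained it. Averaged over diets, Angpt2 ranged from 2.22 to 2.40 in these settings and from 2.34 to 2.43 when 1 library was left out. In the RT1-CE16-low libraries alone, the control diet gave -0.27 for Tek and -0.22 for Ptprb with 1 of 5 genes called, the deficient diet -0.40 for Tek and 0.37 for Tie1 with 2 called, and the average -0.22 for Tek and -0.16 for Ptprb with 3 called. Those libraries also gave 1 call between the deficient and control diets after Glenn surgery, Angpt1 at 1.2, where the RT1-CE16-high libraries gave -0.48. In the RT1-CE16-high libraries alone, the deficient diet gave 0.043 for Angpt1 and 0.24 for Tie1, with 2 called. No excess-diet value exists there, since each sham excess library is low. With numbers under 500 alone, the deficient diet gave -0.40 for Tek and 0.37 for Tie1, with 2 called, and the average for Ptprb was -0.24. These subsets hold fewer libraries, and no other cause was tested. Without a filter, Tie1 on the deficient diet was 0.29 (edgeR adjusted p 0.0600). By limma voom, Angpt1 on the excess diet was 0.60 (adjusted p 0.0414). DESeq2 and limma voom each called 1 gene, Ptprb, between excess and control diets after Glenn surgery.

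Leaving out 1 library kept 574 of 600 surgery values on their side, with 22 calls lost and 4 gained. Angpt1 on the deficient diet lay between 0.63 and 0.98, and with excess vitamin A between 0.33 and 0.74. Tie1 lay between 0.22 and 0.35 on the deficient diet and between 0.31 and 0.40 on the excess diet. Ptprb on the deficient diet ranged from -0.39 to -0.26, and passed without Glenn control replicate 1, sham deficient replicate 3 or Glenn deficient replicate 4. Between 2 and 5 genes were called on the deficient diet (2 without sham deficient replicate 1), and 1 or 2 on the excess diet (1 without sham excess replicate 4 or Glenn excess replicate 2). Between excess and control diets after Glenn surgery they ranged from 0 to 1.

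Over all genes, the number past the threshold was 4023, 4423 and 3549 on the 3 diets and ranged over all settings from 1563 to 4417, 2336 to 4792 and 1960 to 4370. The lowest of these came from fits with fewer libraries. The averaged count of 7792 ranged from 5354 to 8192. The diet contrasts ranged from 0 to 26, 0 to 210 and 0 to 12 after sham surgery, from 1 to 63, 2 to 557 and 0 to 18 after Glenn surgery, and from 0 to 35 for the interaction.

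Of 108 ratio values under other settings, 81 kept their side and 27 lost the call, all of them with numbers under 500 or with the replicate block, where the exact sign-flip test of 5 pairs cannot go below p = 0.0625. Numbers under 500 leave 3 Glenn and 2 sham libraries on the deficient diet, too few for the permutation test to pass. On the excess diet they leave 2 and 5. No conclusion about the ratios is drawn from these losses. The deviations of same-numbered libraries had low correlations: over 15 pairs r ran from -0.246 to 0.231, with 7 over 0.1. In 5 pairs the same-numbered Glenn library was the closest of its diet. Whether same-numbered libraries deviate together was not tested, and the numbers were not used to pair samples in the main tests. With the replicate block, Angpt2 averaged 2.40 and the counts of called members did not move.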
